A study of Homo sapiens with 6 samples.

Results

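The keratin family was examined in T47D cells, a human luminal breast cancer cell line, as every gene whose symbol in the deposited count tables reads KRT followed by a number and, for some, a letter from A to C. The rule took 55 of the 27754 listed genes, and it used names only, not measured values. A keratin was called detected when its mean over the 6 libraries was at least 10 counts, which held for 25 of the 55. They fall into 4 luminal keratins (KRT7, KRT8, KRT18 and KRT19), 3 basal keratins (KRT5, KRT14 and KRT17) and 48 others, of which 4, 2 and 19 were detected.

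The series is RNA sequencing of T47D cells grown as adherent cultures in RPMI medium with serum, from a study of how breast cancer cells change state under stress. The 3 normoxia libraries came from control cells at 20% O2, and the 3 hypoxia libraries from cells held in a chamber at 0.5% O2 for 48 h. All 6 are of the same line, and the labels name no added gene or drug. No label states that the replicates were separate cultures. The study's figure legend calls its data independent experiments, and its methods speak of paired hypoxia and normoxia samples. The p-values measure the spread between these libraries, and the labels do not settle whether it is technical. The comparison asks which keratin transcripts differ between low and ordinary oxygen.

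Keratins are the intermediate filament proteins of epithelial cells. Each filament is built from an acidic type I chain paired with a basic type II chain, and the pair in use reports the kind of epithelium. In the breast, luminal cells that line the duct carry KRT8 and KRT18 with KRT7 and KRT19, whereas the outer, basal layer carries KRT5 with KRT14, and KRT17. Other members belong to the upper layers of skin, to moist mucosa and cornea, to stressed or wounded epithelium, or to hair.

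The libraries held 32989104 to 40943424 counts in normoxia and 34640756 to 89883409 in hypoxia, the deepest being hypoxia replicate 3. A count of 0 allows up to 3 counts, or 0.0334 to 0.0909 counts per 1000000 counts of the library (CPM), for counting error only. No pair of libraries within a condition was alike within sampling noise, the closest being hypoxia replicates 1 and 2 (chi-square over degrees of freedom of 6.09). Replicate 3 stood apart in both conditions: VIM, the intermediate filament of mesenchymal cells, counted 7, 12 and 395 across the normoxia libraries and 35, 35 and 1001 across those of hypoxia, and CAV1 counted 1, 0 and 39 against 15, 9 and 198. Luminal breast identity was present, since the 8 luminal markers other than keratins summed to 5199 to 5998 CPM in normoxia. In hypoxia they summed to 2933 to 3417, with 6 of the 8 lower and none higher (CDH1 was higher with the replicate number as a block, at 0.20). The 8 basal or myoepithelial markers summed to 42.3 to 56.6 CPM in normoxia and 92.7 to 128.5 in hypoxia. Most of the rise lay in EGFR, with means of 26.2 and 75.5 CPM. Of 7 tested, 3 (MYLK, OXTR and EGFR) were higher and none lower, and TP63, ACTA2, CAV1 and MSN were not called. MYLK lost its call in 3 settings that left out libraries, and CAV1 was called higher with the block. CNN1 was at or under 1 count in every normoxia library. The 4 endothelial markers summed to at most 0.656 CPM in any library, and the 6 fibroblast markers to 84.2 to 95.9 against 77.5 to 99.7, nearly all from COL1A1. PTPRC, the common marker of immune cells, was at 0 in the 3 normoxia libraries and had at most 5 counts in hypoxia. Of the genes with enough counts for the test, PDGFRB of the fibroblast list and CD68 of the immune list, both named after their values were seen, were higher (log2 fold changes 3.60 ± 0.81 and 2.36 ± 0.23), and no endothelial marker could be tested. PDGFRB had 0, 0 and 3 counts in normoxia and 14, 18 and 28 in hypoxia, so it entered the test only through hypoxia. Its call was lost without replicate 1 of both conditions. The part of these markers and of replicate 3 in the keratin results was not tested, beyond the values given without that replicate.

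Of the 55 keratins, 23 had enough counts to be tested, 13 were higher in hypoxia, 1 was lower and 9 did not pass (edgeR's quasi-likelihood test, adjusted p under 0.05 by the Benjamini-Hochberg method over the 15657 genes tested). Over all tested genes 30.4% were higher and 29.1% lower. The 13 were KRT3, KRT4, KRT6B, KRT15, KRT16, KRT17, KRT20, KRT32, KRT40, KRT80, KRT81, KRT83 and KRT222, and the lower gene was KRT13, a mucosal keratin. All 4 luminal keratins were among the 9 that did not pass. Of the 23, 6 (KRT6B, KRT16, KRT17, KRT20, KRT32 and KRT83) had under 10 counts in every normoxia library, so they entered the test only through hypoxia and had to differ. All 6 were higher, as were 97.0% of all 571 tested genes of that kind. Of the other 17 keratins 7 were higher and 1 lower (41.2% and 5.88%), against 27.9% and 30.2% of the 15086 other genes tested, and the median log2 fold change was 0.0885 in these keratins and -0.0042 in those genes. Of these 17, KRT3 and KRT81 had 10 counts or more in normoxia replicate 3 alone (23 and 12 counts). Both were called higher, and both had enough counts for the test only through hypoxia. The 41.2% is thus not free of that selection. In bulk RNA, a transcript made by few cells and a low level in every cell cannot be told apart.

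With the replicate number as a block, 13 keratins were higher and 4 lower, the additions being KRT8, KRT18 and KRT10, where 36.6% and 35.2% of all genes were called. Without replicate 3 of both conditions, 14 of 24 tested keratins were higher, with the root sheath keratin KRT75 added, and 4 lower, against 36.4% and 34.8% of all genes.

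The luminal keratins made up nearly all keratin RNA in both conditions. On a scale per length (RPKM, the CPM divided by the exon length in kilobases), KRT8, KRT19 and KRT18 stood at 2561 ± 638, 2322 ± 390 and 1549 ± 388 in normoxia (mean ± SD, n = 3), and KRT8 and KRT19 did not differ beyond their spread. In hypoxia, KRT19 led at 2263 ± 409, KRT8 followed at 1797 ± 426 and KRT18 at 1207 ± 214, and this order held within each hypoxia library. KRT7 was far lower, at 43.2 ± 3.42 RPKM and 40.7 ± 5.76.

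KRT8, the type II partner of KRT18 in simple epithelium, had 5193, 4759 and 7450 CPM in normoxia and 3627, 3408 and 5176 in hypoxia. The groups overlapped, because hypoxia replicate 3 lay above normoxia replicate 2, and yet hypoxia was the lower in each replicate number, at 0.698, 0.716 and 0.695 of its normoxia value. The log2 fold change was -0.51 ± 0.21 (SE), and the adjusted p was 0.0684 without the block and 7.55e-05 with it. KRT18, the type I partner, had 2127, 1949 and 3058 CPM in normoxia and 1689, 1639 and 2230 in hypoxia. These groups overlapped as well, and the ratio within each replicate number was 0.794, 0.841 and 0.729. Its log2 fold change was -0.36 ± 0.19, with an adjusted p of 0.137 without the block and 0.00107 with it (log2 fold change -0.35). Without hypoxia replicate 3, both passed the test, at -0.73 for KRT8 and -0.52 for KRT18. Over the 16 other settings tried, KRT8 passed in 7 and KRT18 in 3, each time lower in hypoxia.

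KRT19, the shortest type I keratin and a marker of luminal cells, had 3065, 3105 and 4077 CPM in normoxia and 2979, 2983 and 4024 in hypoxia. Its groups overlapped, and each hypoxia library lay close to the normoxia library of the same number, at ratios of 0.972, 0.961 and 0.987. The log2 fold change of -0.04 had a 95% interval of -0.41 to 0.33 (adjusted p = 0.855). KRT7, the other type II keratin of glandular epithelium, had 69.5, 71.0 and 80.2 CPM in normoxia and 68.1, 60.1 and 79.6 in hypoxia, which overlapped. Its log2 fold change was -0.09, with an interval of -0.35 to 0.18 (adjusted p = 0.551). Upper-quartile scaling, which moved the median over all genes from 0.03 to 0.19 on the log2 scale, turned the sign of KRT19 and KRT7, and neither was called under either scaling.

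The ratios between luminal chains were higher in every hypoxia library than in every normoxia library. In RPKM, KRT18 stood at 0.604, 0.604 and 0.606 of KRT8 in the normoxia libraries and at 0.687, 0.710 and 0.636 in hypoxia. KRT19 stood at 0.909, 1.00 and 0.843 of KRT8 in normoxia and 1.26, 1.35 and 1.20 in hypoxia. Summed over the family, type I keratins exceeded type II by 1.51, 1.62 and 1.45 times in normoxia and 1.93, 2.04 and 1.81 times in hypoxia. These ratios do not depend on the scaling between libraries, and since the genes were chosen with earlier results known they are given as a description, with no test.

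**Figure D1:**
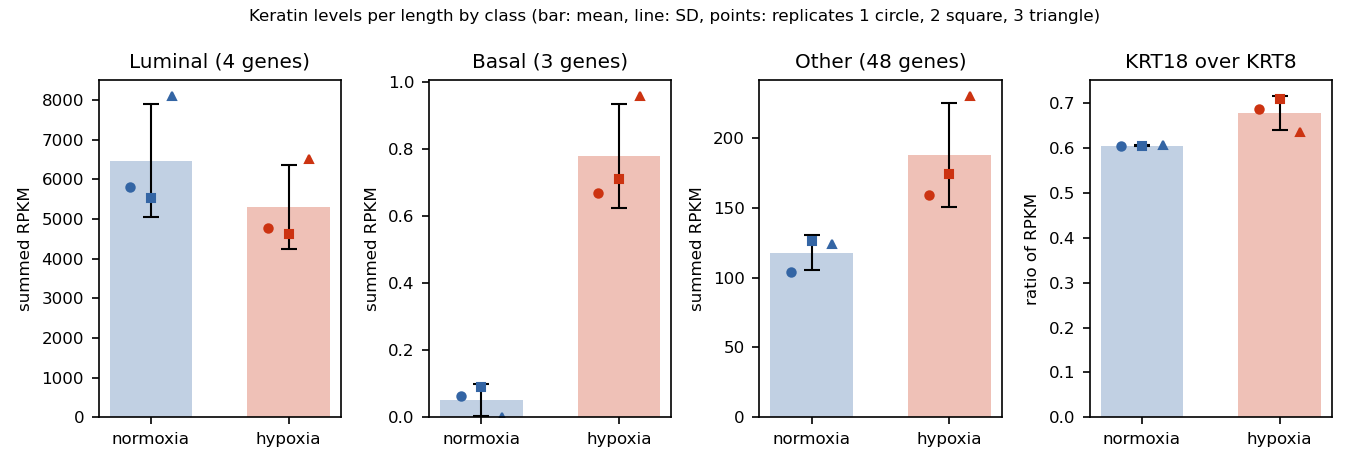
Summed RPKM of the luminal, basal and other keratins and the ratio of KRT18 to KRT8, with bars for the mean of 3 libraries, lines for the SD and points for the libraries. The luminal sums overlap between conditions, the other 3 panels do not, and each panel has its own vertical scale.

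Summed over KRT7, KRT8, KRT18 and KRT19, the luminal level was 6475 ± 1414 RPKM in normoxia and 5308 ± 1053 in hypoxia, with overlapping libraries. The basal sum was 0.0638, 0.0910 and 0 RPKM in normoxia and 0.670, 0.709 and 0.957 in hypoxia, which did not overlap. The remaining 48 keratins summed to 118 ± 12.3 RPKM and 187 ± 37.3, again without overlap. The luminal share of keratin RPKM was 98.2% ± 0.370 in normoxia and 96.6% ± 0.195 in hypoxia.

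The basal keratins were near the limit of detection, with KRT17 higher in hypoxia, KRT5 below the level needed for the test and KRT14 not detected. KRT17, a type I keratin of basal cells and hair follicles that also appears in wounded epithelium, had 3, 3 and 0 counts in normoxia and 35, 34 and 109 in hypoxia. Every hypoxia library exceeded every normoxia library. The pooled counts of 6 and 178 gave a ratio of 19.0 after scaling to library size (exact 95% interval 8.54 to 52.4, counting error only), and the log2 fold change was 4.12 ± 0.52 (adjusted p = 4.48e-04), or 3.47 without replicate 3 of both conditions. KRT5, the type II keratin of the basal layer, had 0, 2 and 0 counts in normoxia and 7, 10 and 42 in hypoxia, the groups not overlapping. It was too low for the test. The pooled ratio was 18.9 (4.99 to 159, counting error only). No p from a filtered fit is given, since any filter KRT5 passes it passes through its hypoxia counts. KRT14, the type I partner of KRT5, had 1, 1 and 0 counts in normoxia and 3, 0 and 0 in hypoxia, at the limit a count of 0 allows, so no difference was detectable at this depth. Per length, KRT17 moved from rank 23 of the 25 detected keratins in normoxia to rank 12 in hypoxia, while KRT5 was rank 25 in both. In hypoxia, KRT17 reached 0.632 ± 0.1103 RPKM beside 1207 ± 214 for KRT18.

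KRT15, a type I keratin of basal cells and of the stem cell region of the hair follicle, was the most abundant keratin among those that rose, together with KRT80. It had 20.0, 29.2 and 29.1 CPM in normoxia and 89.0, 109 and 102 in hypoxia. The groups were far apart, and KRT15 was 3.83-fold higher, with a log2 fold change of 1.94 ± 0.16 (adjusted p = 9.27e-05). KRT80, a type II keratin of several epithelia, had 41.5, 37.5 and 42.2 CPM in normoxia and 123, 114 and 124 in hypoxia. Its standard error was the smallest of the tested keratins, and the ratios within replicate numbers were 2.96, 3.05 and 2.94. The log2 fold change was 1.58 ± 0.08 (adjusted p = 3.23e-05). Both were called under each of the 16 other settings tried, with log2 fold changes of 1.77 to 2.10 for KRT15 and 1.51 to 1.73 for KRT80.

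KRT23, a type I keratin of glandular epithelia, had 113, 160 and 103 CPM in normoxia and 109, 121 and 169 in hypoxia. The groups overlapped, with a log2 fold change of 0.09 (95% interval -0.39 to 0.56). KRT10, the type I keratin of the upper layers of the epidermis, had 58.6, 54.5 and 88.6 CPM in normoxia and 43.1, 40.7 and 66.3 in hypoxia. These groups overlapped, and hypoxia was lower within each replicate number, at ratios of 0.735, 0.746 and 0.748. The log2 fold change was -0.42 ± 0.24 (adjusted p = 0.157, and 1.96e-04 with the replicate block), and KRT10 also passed without hypoxia replicate 3, at -0.69. The other 4 keratins of the upper epidermis, KRT1, KRT2, KRT9 and KRT77, had at most 2 counts in any library.

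Among keratins of moist mucosa and cornea, KRT4 and KRT3 rose and KRT13 fell. KRT4 (type II) and KRT13 (type I) are known as a pair of moist mucosa such as that of the oesophagus. KRT13 had 4.36, 4.33 and 7.30 CPM in normoxia and 0.420, 0.656 and 0.536 in hypoxia, the only called keratin to be lower without the block. No hypoxia library came near a normoxia library, and the log2 fold change was -3.30 ± 0.30 (adjusted p = 1.31e-04). KRT4 had 8.34, 7.61 and 13.6 CPM in normoxia and 16.5, 19.8 and 57.2 in hypoxia. Its groups did not overlap, although hypoxia replicate 3 lay well above the other hypoxia libraries. The log2 fold change was 1.68 ± 0.48 (adjusted p = 0.0167), falling to 0.89 without hypoxia replicate 3 (adjusted p = 0.0168), and the call was lost without normoxia replicate 1 or 2 (log2 fold changes 1.554 and 1.502). In RPKM, KRT4 thus stood at 1.53, 1.40 and 1.48 times KRT13 in normoxia and at 31.4, 24.2 and 85.2 times in hypoxia.

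KRT3, a type II keratin of the cornea, had 0.203, 0.215 and 0.743 CPM in normoxia and 2.72, 3.09 and 16.0 in hypoxia. Replicate 3 was the highest library of each condition, and the ratios within replicate numbers were 13.4, 14.4 and 21.5. The log2 fold change was 4.31 ± 0.88 (adjusted p = 0.00400), or 2.95 without hypoxia replicate 3 (adjusted p = 0.00182) and 5.13 without normoxia replicate 3. KRT3 had enough counts for the test only through hypoxia. Its partner KRT12 had 0 counts in the 3 normoxia libraries and 4, 2 and 4 in hypoxia. KRT76, a keratin of the palate and gum, was too low for the test, with 2, 1 and 2 counts against 14, 8 and 88, a pooled ratio of 14.1 (5.84 to 44.2). KRT76, KRT3 and KRT4 lie next to each other in the type II cluster on chromosome 12, all on the minus strand (53161939 to 53171129, 53183469 to 53189892 and 53200327 to 53207900 in GRCh37, the build of the files), and in CPM hypoxia replicate 3 was the highest library for each of them (0.963 for KRT76). That library was also the highest in CPM for keratins elsewhere in the clusters, among them KRT5, KRT16, KRT17, KRT20, KRT32 and KRT222. KRT79 and KRT78, the next genes along the chromosome, had at most 12 and 10 counts.

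The promoters of these neighbours were compared because the genes are adjacent and had their highest CPM in the same library. A highest CPM in that library was not particular to them. Set beside them is the promoter of KRT8 in the same cluster, whose highest CPM was in normoxia replicate 3. Shown are the 50 bases before the RefSeq start of each gene (GRCh38.p14, minus strand, 5′ to 3′), at chr12:52796118-52796167 for KRT3, chr12:52777346-52777395 for KRT76, chr12:52814117-52814166 for KRT4 and chr12:52926470-52926519 for KRT8. The start used for KRT8 lies inside the span of its deposited exons (53290971 to 53343650 in GRCh37), and other starts of KRT8 were not examined. Capitals mark TATAAA, the letters of a classical TATA box.
KRT3: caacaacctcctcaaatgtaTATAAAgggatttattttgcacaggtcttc
KRT76: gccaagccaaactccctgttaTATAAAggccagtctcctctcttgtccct
KRT4: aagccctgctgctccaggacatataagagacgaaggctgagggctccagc
KRT8: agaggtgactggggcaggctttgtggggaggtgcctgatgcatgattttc

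KRT3 held TATAAA 30 bases before its start and KRT76 29 bases before, while the letters were absent from the windows of KRT4 and KRT8. RefSeq promoters were at hand for 34 of the 55 keratins, 11 of them detected. TATAAA on the gene's own strand, beginning 40 to 15 bases before the start, occurred in 15 of the 34 (44.1%), against 2.60% of all 27305 promoters. The share was alike for detected keratins (5 of 11: KRT3, KRT10, KRT24, KRT37 and KRT76) and those not detected (10 of 23), and of the 5 keratins called higher that had a promoter only KRT3 held it. The letters ACGTG or GCGTG, the core bound by hypoxia-inducible factors, were searched on both strands from 250 bases before to 50 after the start. They occurred in 7 of 34 keratin promoters (20.6%) and in 48.4% of all promoters, and among the 5 called higher KRT20 held 1 and KRT40 held 3. A match is a description of letters, not a bound site.

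**Figure D2:**
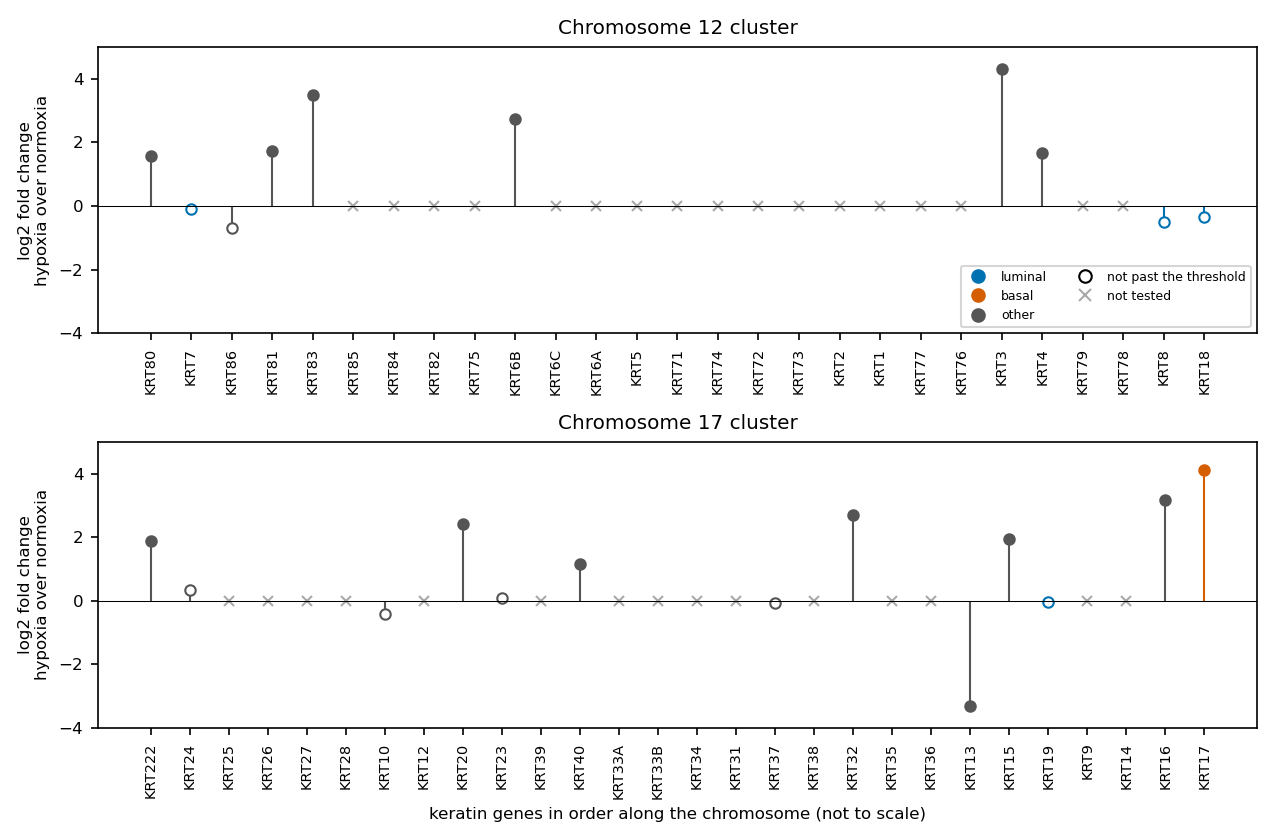
Log2 fold change of each keratin in its order along the type II cluster of chromosome 12 and the type I cluster of chromosome 17 (filled, adjusted p under 0.05; open, not past it; cross, not tested). The neighbours KRT3 and KRT4 are both higher, whereas KRT13 at -3.30 lies next to KRT15 at 1.94.

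All 55 genes lie in these clusters, 27 on chromosome 12 (52562780 to 53346685) and 28 on chromosome 17 (38811872 to 39780882), with KRT18 as the type I gene placed in the type II cluster. Neighbours did not share a direction throughout. On chromosome 17 KRT13 (39657233 to 39661865), KRT15 (39669997 to 39675270) and KRT19 (39679869 to 39684641) follow each other, and in hypoxia KRT13 was lower, KRT15 higher and KRT19 not past the threshold. At the end of the same cluster KRT14, KRT16 and KRT17 are adjacent, and KRT14 was not detected while KRT16 and KRT17 were higher. On chromosome 12, KRT80 was higher and its neighbour KRT7 was not.

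Of the 4 keratins of stressed or wounded epithelium, 2 could be tested and both were higher, KRT16 and KRT6B, which entered the test only through hypoxia. KRT16 had 3, 5 and 3 counts in normoxia and 20, 18 and 156 in hypoxia, and KRT6B had 3, 8 and 2 against 37, 46 and 37. Neither overlapped between conditions. The log2 fold changes were 3.18 ± 0.68 for KRT16 (adjusted p = 0.00480) and 2.75 ± 0.61 for KRT6B (adjusted p = 0.00583). KRT16 stood at 2.23 without hypoxia replicate 3, and KRT6B lost its call without replicate 1 of both conditions and stood at 3.49 without normoxia replicate 2. KRT6A and KRT6C, close relatives of KRT6B, had at most 4 and 1 counts. KRT20, the keratin of intestinal lining and urothelium, had 3, 7 and 5 counts in normoxia and 20, 19 and 108 in hypoxia, with a log2 fold change of 2.43 ± 0.52 (adjusted p = 0.00498) that was 1.83 without hypoxia replicate 3.

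Hair keratins, the hard keratins of the hair shaft and nail, supplied 4 of the 13 that rose. Of the 17 hair keratins 6 were tested (KRT32, KRT37, KRT40, KRT81, KRT83 and KRT86), 4 were higher and none lower, with a median log2 fold change of 1.46, beside 30.4% and 29.1% of all genes and a median of 0.03. Of the 4, KRT32, KRT81 and KRT83 had enough counts for the test only through hypoxia. The 4 of 6 is thus partly set by that selection. KRT83 had 6, 2 and 2 counts in normoxia and 50, 45 and 73 in hypoxia, without overlap and with a log2 fold change of 3.50 ± 0.43 (adjusted p = 4.22e-04) that was 4.12 without normoxia replicate 1. KRT32 had 4, 7 and 4 counts against 13, 16 and 167. The high count of KRT32 in hypoxia replicate 3 carried much of its log2 fold change of 2.70 ± 0.78 (adjusted p = 0.0176), which was 1.41 without that library, and the call was lost without normoxia replicate 1.

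KRT40, a type I hair keratin, had 0.456, 0.564 and 0.420 CPM in normoxia and 0.889, 1.23 and 1.14 in hypoxia. The groups were apart, with a log2 fold change of 1.17 ± 0.26 (adjusted p = 0.00594) whose call was lost without replicate 1 of both conditions. KRT81 had 3, 2 and 12 counts against 18, 15 and 67, and its call (log2 fold change 1.74 ± 0.63, adjusted p = 0.0422) was lost in 8 of the 16 other settings. Normoxia replicate 3 set much of the KRT81 value, which was 3.02 without that library. KRT86 had 0.937, 2.15 and 0.872 CPM in normoxia and 0.939, 0.902 and 0.678 in hypoxia, overlapping, at -0.68 ± 0.39 (adjusted p = 0.163). KRT37 had 13, 15 and 7 counts against 5, 8 and 45, and its log2 fold change of -0.08 ranged from -1.09 to 0.24 over the other settings, never past the threshold.

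KRT222, a short keratin-like type I member, had 0.380, 0.752 and 0.808 CPM in normoxia and 1.85, 2.05 and 3.18 in hypoxia. The groups did not overlap, and the log2 fold change was 1.89 ± 0.35 (adjusted p = 0.00244). KRT24, another type I keratin, had 11, 15 and 17 counts in normoxia and 12, 16 and 66 in hypoxia. The groups overlapped in CPM, and the log2 fold change of 0.33 had an interval of -0.64 to 1.29.

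**Figure D3:**
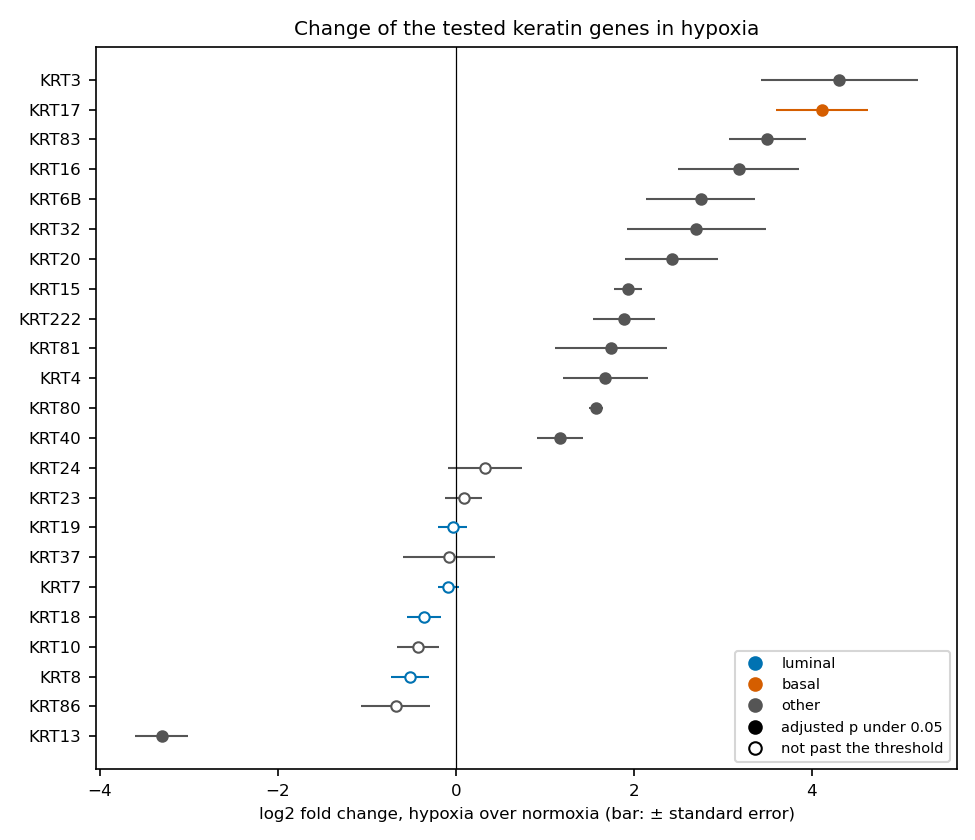
Log2 fold change of the 23 tested keratins, hypoxia over normoxia, with bars of 1 standard error and filled points for adjusted p under 0.05. The 13 filled points on the right run from 1.17 for KRT40 to 4.31 for KRT3, KRT13 is the only filled point on the left at -3.30, and the luminal keratins are open points between -0.51 and -0.04.

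The 30 keratins that were not detected had at most 17 counts in any library. KRT25, KRT26, KRT27, KRT28, KRT34, KRT77 and KRT85 were at 0 in all 6. KRT75 and KRT38 reached 17 counts, KRT33A 13, KRT79 12 and KRT78 10. KRT6A, KRT12, KRT72 and KRT74 reached 4, KRT14, KRT36 and KRT39 reached 3, KRT1, KRT2, KRT9, KRT31, KRT33B and KRT82 reached 2, and KRT6C, KRT35, KRT71, KRT73 and KRT84 reached 1. The detection limit fell between KRT5, with a mean of 10.2 counts, and KRT75, with a mean of 8.83 (2, 2 and 0 counts in normoxia, 17, 15 and 17 in hypoxia). Only 14 of the 25 detected keratins had 10 counts or more in every library, and 22 were detected without replicate 3 of both conditions. The root sheath keratin KRT75 was not detected by the rule and gave a pooled ratio of 7.83 (2.87 to 29.9). KRT33A, a hair keratin, went the other way, with 8, 13 and 8 counts in normoxia and 0, 2 and 6 in hypoxia. A fit with no filter on low counts put KRT33A at -2.51 ± 0.68 on the log2 scale (adjusted p = 0.0112). The same fit called KRT5, KRT12, KRT75, KRT76 and KRT78 higher. With at most 2 counts in any normoxia library, these genes could be called only as higher, so their p-values are not given. Their log2 fold changes were 3.905, 4.57, 3.04, 3.47 and 5.67.

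Several keratins share sequence or exons, which bears on what their counts hold. KRT8 and KRT18 overlap by 135 exon bases on opposite strands, 5.96% of the exon length of KRT8 and 8.80% of that of KRT18. KRT7 overlaps its antisense gene KRT7-AS by 221 bases, 13.0% of its exons. The libraries were stranded, but whether the counting used strand is not given in the sources used here, so reads over these stretches may belong to either gene. Of all 50-base words in their transcripts, KRT6B shared 46.7% with other keratins or keratin pseudogenes, mostly KRT6C, KRT81 shared 44.6% and KRT86 33.7%, mostly with each other, and KRT16, KRT18 and KRT83 shared 15.1%, 15.01% and 12.8%. The values of KRT6B, KRT81 and KRT86 are uncertain to that extent. KRT4, KRT10, KRT20, KRT23, KRT40 and KRT222 shared none, and KRT13, KRT15, KRT19 and KRT80 under 1%.

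Keratin filaments are anchored at desmosomes and hemidesmosomes, linked by plakins, and built into the cornified envelope of stratified epithelium. Of 55 genes of these structures, their regulators and other intermediate filaments, 42 were tested, 17 were higher and 12 lower, beside 30.4% and 29.1% of all genes, with medians of 0.21 and 0.03. Among 8 tested desmosome genes 4 were higher and 1 lower. Desmoplakin (DSP), which ties keratin filaments to the desmosome, had 830, 828 and 746 CPM in normoxia and 2863, 2911 and 2856 in hypoxia, far apart, with a log2 fold change of 1.84 ± 0.08 (adjusted p = 1.85e-05). The desmosomal cadherin DSC1 was higher from a low level (0.260 to 2.36 CPM, log2 fold change 3.16 ± 0.25). DSC1 had 10, 10 and 8 counts in normoxia and 108, 86 and 189 in hypoxia, so it was tested only through hypoxia. Plakoglobin (JUP) was lower at -0.29 ± 0.08. The JUP call was lost with upper-quartile scaling (-0.13) and in 5 settings that left out libraries.

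Of 7 plakins and keratin-binding proteins 1 was higher and 5 were lower, beside 30.4% and 29.1% of all genes. With upper-quartile scaling, 21 of the linked genes as a whole were higher and 8 lower, in place of 17 and 12. Periplakin (PPL) was higher at 0.35 ± 0.10, a call lost in 3 settings that left out libraries, and TCHP, which binds keratin filaments, and FAM83H, which organises them, were lower at -0.96 ± 0.10 and -0.75 ± 0.13. Among 6 hemidesmosome genes 2 were higher and none lower. These were COL17A1, a hemidesmosomal collagen, with 2, 1 and 1 counts in normoxia and 36, 23 and 137 in hypoxia (log2 fold change 4.70 ± 0.56), and the laminin chain LAMB3 at 2.64 ± 0.35. COL17A1, near silent in normoxia, entered the test only through hypoxia and so had to differ.

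Of 11 cornified envelope genes 5 could be tested, 4 were higher and none lower. SPRR1A, a small proline-rich envelope protein, had 1, 2 and 1 counts in normoxia and 69, 81 and 151 in hypoxia (5.54 ± 0.38), and SCEL, sciellin, had 2, 6 and 1 against 71, 73 and 204 (4.54 ± 0.43, or 5.46 without normoxia replicate 2). Both were near silent in normoxia, where a tested gene had to differ. Loricrin (LOR) and filaggrin (FLG), defining proteins of the fully cornified layer, had at most 1 and 10 counts. They were named after their values were seen.

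Among 10 transcription factors of epithelial programmes 5 were higher and 3 lower. KLF4 was higher at 1.83 ± 0.15 and ELF3 at 1.79 ± 0.21, and OVOL2 and GRHL2 were lower at -0.63 ± 0.17 and -0.56 ± 0.07, the OVOL2 call being lost in 4 settings that left out libraries. TP63, the regulator of basal keratins, named after its values were seen, had 51, 70 and 33 counts against 65, 66 and 126, at 0.16 ± 0.26 (adjusted p = 0.620). Of 6 other tested intermediate filament genes 1 was higher, nestin (NES) at 1.35 ± 0.31, and 3 were lower, among them the lamins LMNB1 at -1.08 ± 0.12 and LMNB2 at -0.88 ± 0.19. The calls of NES and LMNB2 were lost without replicate 1 of both conditions.

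**Figure D4:**
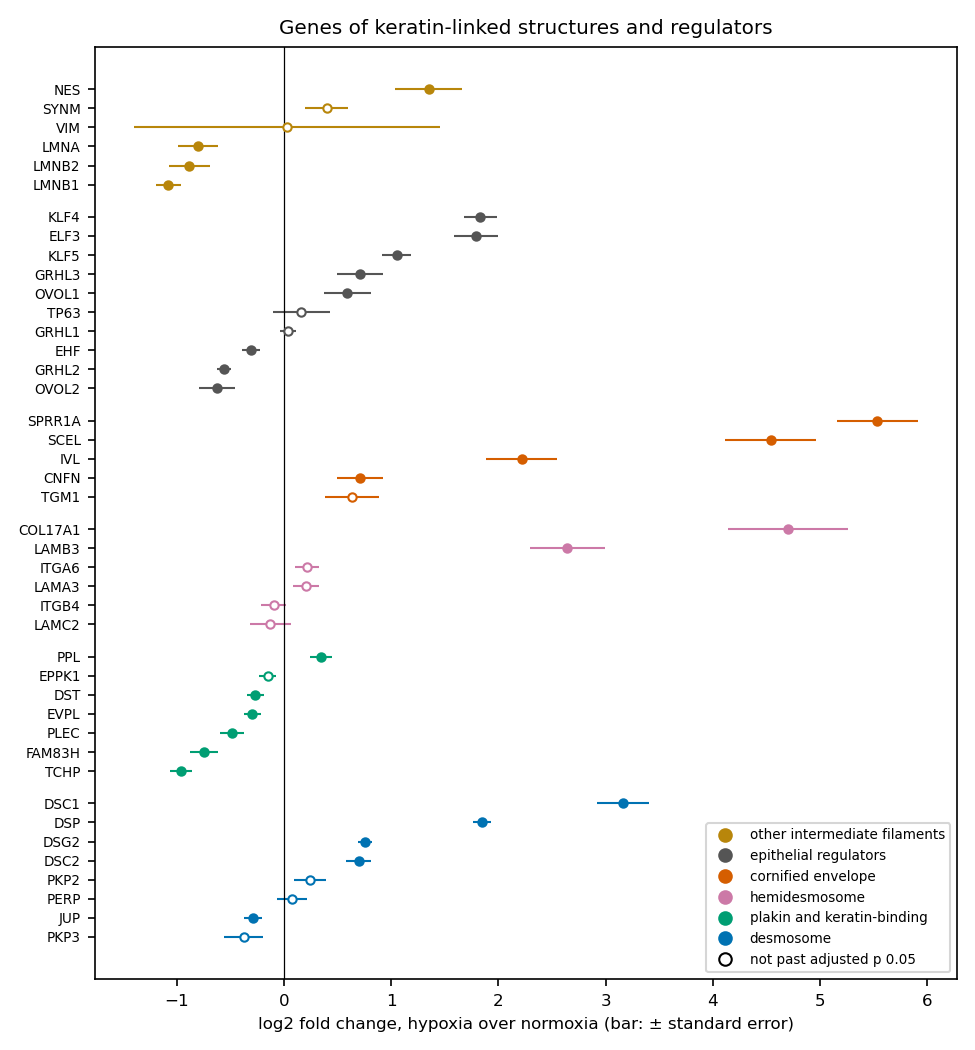
Log2 fold change of the 42 tested genes of keratin-linked structures, epithelial regulators and other intermediate filaments, hypoxia over normoxia, with bars of 1 standard error and filled points for adjusted p under 0.05. SPRR1A at 5.54 and COL17A1 at 4.70 lie farthest to the right, LMNB1 at -1.08 farthest to the left, and VIM has the widest bar.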

How the data were processed

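RNA was measured in 3 normoxia and 3 hypoxia libraries of T47D cells, grouped by their labels. Per the study's methods and the submitters' processing notes, the authors trimmed reads with Skewer, checked them with FastQC 0.11.5, aligned them with STAR 2.5.2a to hg19 and counted reads per RefSeq gene with featureCounts 1.5.1. They deposited raw counts, 1 table per library, with the exon coordinates and the summed exon length (the Length column) of each gene. The strand setting and the handling of reads with several matches are not given in the sources used here. The oxygen level given here is that of the labels, and the study's text gives another. No column was left unmatched to a sample (0).

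The members and lists were chosen with earlier results of these data known. Genes passing edgeR's filterByExpr (minimum count 10, total 15) were tested by the edgeR 4.0.16 quasi-likelihood test with TMM factors and condition as the only term, in R 4.3.3 (limma 3.58.1). Alternatives included the exact test of edgeR, as in the study's methods, and DESeq2 1.42.0. The SE is the absolute log2 fold change over the square root of the F statistic, and 95% intervals use the t distribution with edgeR's total degrees of freedom. CPM and RPKM use TMM-scaled library sizes, and RPKM the deposited length. The fit was checked on simulated data. Intervals of pooled count ratios are exact binomial and cover counting error only. Tables were made with Python 3.11.15, pandas 2.3.3 and scipy 1.17.1, figures with matplotlib 3.10.9. Shared transcript words and exon overlaps came from GENCODE v44 transcripts on GRCh37 and from the deposited exons.

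Libraries with the same replicate number in the labels deviated together from their group means (correlation across genes 0.338, 0.422 and 0.575). The study's methods also speak of paired samples. The main test did not use this pairing. A fit with the replicate number as a block is given as an alternative. All detected keratins could be named, with values in every library for the luminal and basal keratins and the 10 other detected keratins of highest mean CPM, others by choice after their values were seen. Of each list of linked genes, those past adjusted p 0.05 with the largest 2 log2 fold changes each way were named. Alternatives were other tests, scalings, filters and thresholds, the replicate block, and leaving out each library or replicate number. The summed level of the immune marker list is not reported here.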

Additional observations from a re-analysis of the deposited data

How the results depend on the processing

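The 13 keratins higher in hypoxia numbered 10 to 18 under all settings tried and 11 to 16 with libraries left out. The 1 lower keratin became 2 with edgeR's exact test, 3 with DESeq2, 3 with no filter on low counts and 4 with the replicate block, and 1 to 4 with libraries left out (4 without hypoxia replicate 3, or without replicate 3 of both conditions, and 2 without normoxia replicate 2). The exact test added KRT8 alone. The replicate block changed no keratin call other than those of KRT8, KRT10 and KRT18, and among linked genes it added PKP2, ITGA6 and TGM1 as higher and PKP3 as lower, and among cell type markers CDH1 and CAV1 as higher. Detected keratins numbered 12 at a mean of at least 50 counts and 14 at 10 counts in every library. Linked genes higher in hypoxia fell from 17 to 11 where a log2 difference of 1 was also required. Those lower went from 12 to 7 at an adjusted p under 0.01 and 1 with that requirement, and to between 4 and 15 with libraries left out (4 without replicate 1, 7 without replicate 2 or without hypoxia replicate 2). No direction of a called keratin turned. Of the values of single keratins under other settings, 342 kept their side of the threshold, 13 lost it and 13 gained it. The luminal sum stayed lower in hypoxia (log2 ratio -0.46 to -0.09), and the basal and other sums and the type I to type II ratio higher, under every scaling and omission. Depth limits KRT14, KRT5 and the 30 keratins that were not detected, where a count of 0 in 1 library allows 3.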
